A study of Mus musculus with 8 samples.

Results

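The growth hormone, STAT5 and IGF1 axis of the liver was followed through 10 genes: Igf1, Igfals, Ghr, Cish, Socs2, Stat5b, Igfbp1, Igfbp2, Igfbp3 and Igfbp4. They were taken as a list of symbols, and every probe that the array annotation assigns to them was used, which gave 13 probes for 10 of the 16593 genes named on the array. Ghr, Igfbp2 and Igfbp4 had 2 probes each, and the other genes had 1. Of the 10 genes, 9 passed the detection filter. The single Stat5b probe never exceeded background.

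Pituitary growth hormone binds its receptor GHR on hepatocytes, which activates the kinase JAK2 and the transcription factor STAT5B. STAT5B switches on Igf1, whose product carries much of the hormone's growth effect, and Igfals, whose product holds IGF1 and IGFBP3 in a long-lived complex in the blood. It also switches on CISH and SOCS2, which damp the receptor's signal. The IGF-binding proteins carry IGF1 and control how much of it reaches its receptor. In mice, IGFBP2 is abundant in the fetal liver, and hepatic Igf1 rises after birth.

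The livers compared were from Cic-L-/- mice, which lack the long form of the HMG-box repressor capicua, and from wildtype mice. All animals were C57BL and 18 days old, and each group had 4 samples with 1 Illumina bead array per sample. The sources used here do not state how the Cic-L allele was made, which cells carry it or the sex of the animals. Nothing in the labels ties the samples to separate animals, so each p-value rests on the spread among these 8 samples, and that spread may be technical.

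Between 39.6% and 43.5% of probes exceeded background on the Cic-L-/- arrays, and between 38.7% and 41.3% on the wildtype arrays. The number of arrays limits the precision of every value. The first principal component of all features placed Cic-L-/- replicates 1 and 2 at -26.6 and -26.1, Cic-L-/- replicates 3 and 4 at -14.8 and -12.9, and the wildtype samples between 17.9 and 23.4. The Cic probe was above background on 0 of 8 arrays and checks nothing about the deleted part. Of 11 tested hepatocyte marker genes, 0 were called at an adjusted p under 0.05, beside 7.39% of all features. At that share, 0 of 11 is a common outcome. The smallest adjusted p-values (limma) were those of Tdo2 (log2 difference -0.85, adjusted p = 0.0654) and Ttr (0.54, adjusted p = 0.089). The summed signal of the list was 131000 to 153000 in Cic-L-/- liver, against 137000 to 153000 in wildtype liver. Fgb and Tat of that list were below background, and the Alb probe was dim in both groups (5.33 ± 0.52 in Cic-L-/- liver, against 6.01 ± 0.54 in wildtype liver, log2 signal, SD, n = 4 each). In these bulk samples, fewer cells of a type and less RNA per cell cannot be told apart.

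In Cic-L-/- liver, Cish, Igfals, Igf1 and Ghr fell and Igfbp2 rose, while Socs2, Igfbp1, Igfbp3 and Igfbp4 did not pass the test. Calls were made at an adjusted p under 0.05 in limma, adjusted by the Benjamini-Hochberg method over 8255 features. The 5 called genes of 9 tested stand beside a background of 7.39% of all features called. The background was 2.90% for lower calls, against 4 of 9 here, and 4.49% for higher calls, against 1 of 9 here. The 4 Cic-L-/- values did not overlap the 4 wildtype values for 6 of the 9 genes, against 15.1% of all features. The genes were listed with earlier results of these data known, so these shares are not independent evidence. The median log2 difference of the 9 genes, Cic-L-/- minus wildtype, was -0.34, and that of all features was 0.00. With median centring in place of quantile normalisation, calls over all features were 706 higher and 131 lower, in place of 371 higher and 239 lower, and the median of all features moved to 0.17. On that scale Cish, Igfals, Igf1 and Igfbp2 kept their calls and Ghr did not (adjusted p = 0.0706).

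**Figure D1:**
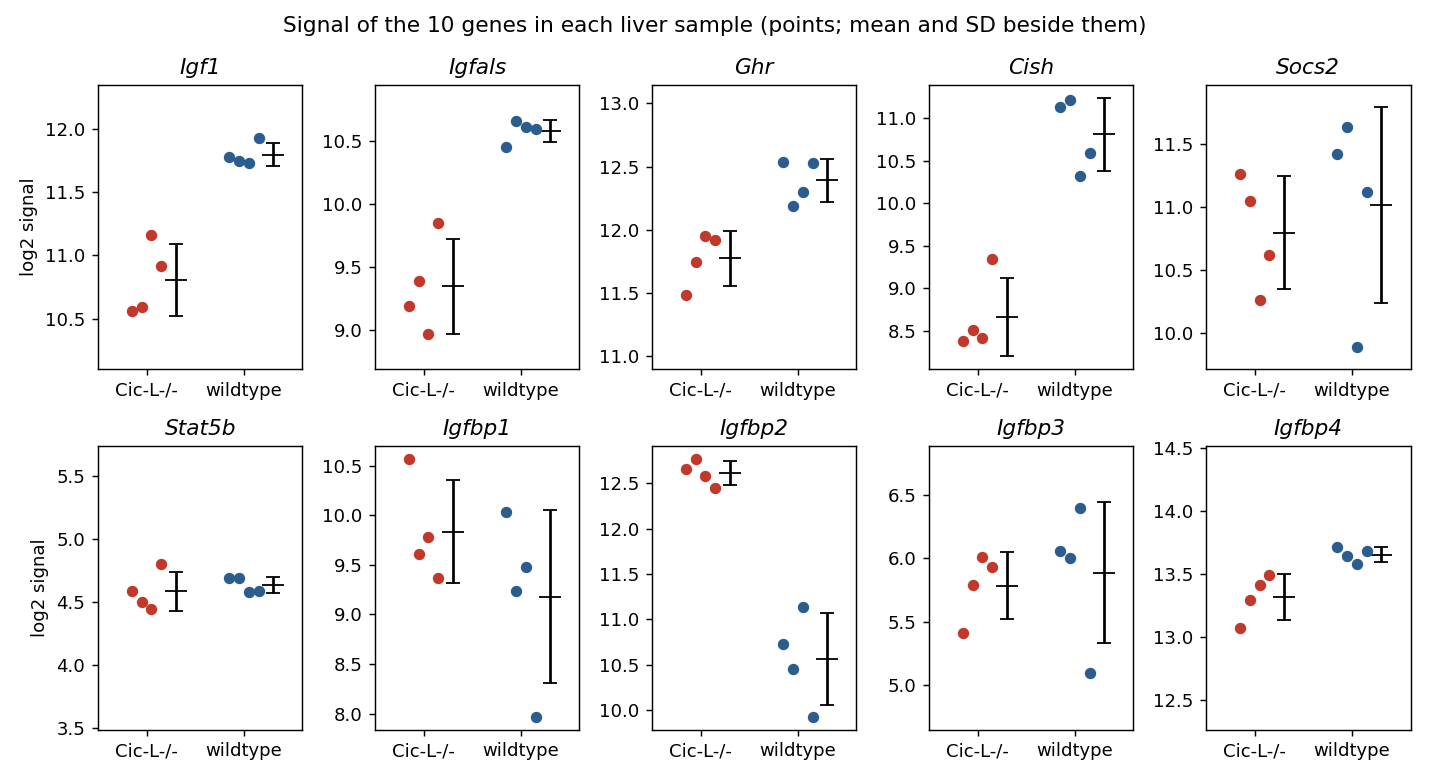
Each panel plots 1 gene, with the background-corrected, quantile-normalised log2 signal of its brightest kept probe (for Stat5b its only probe) on the y axis (the axes differ between panels and do not start at 0) for the 4 Cic-L-/- and the 4 wildtype samples. Points are samples and the bars are the mean and SD of each group. For Igf1, Igfals, Ghr, Cish, Igfbp2 and Igfbp4 the groups do not overlap, and Stat5b lies at background throughout.

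At the receptor, Ghr had log2 signals of 11.48, 11.74, 11.95 and 11.92 in Cic-L-/- replicates 1 to 4, against 12.54, 12.19, 12.30 and 12.53 in wildtype replicates 1 to 4. The highest Cic-L-/- value lay 0.23 below the lowest wildtype value. The mean was 11.77 ± 0.22 in Cic-L-/- liver, against 12.39 ± 0.18 in wildtype liver (SD, n = 4 each), a 1.53-fold fall (log2 difference -0.62 ± 0.16 SE, adjusted p = 0.0397, limma). This was the smallest of the called differences, and the call ended when Cic-L-/- replicate 1 or 2 or any 1 wildtype sample was left out (highest adjusted p = 0.106). It also ended with the replicate number as a block (adjusted p = 0.078).

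The second Ghr probe, which the annotation assigns to another Ghr transcript, gave 8.75, 8.87, 8.59 and 8.26 in Cic-L-/- liver and 8.97, 9.21, 9.50 and 8.66 in wildtype liver. Here the groups overlapped, because wildtype replicate 4 was lower than 2 of the Cic-L-/- samples. Its difference was -0.47 ± 0.21 (SE, adjusted p = 0.214 over 10300 kept probes, of which 6.20% were called), while the first probe kept its call among them (adjusted p = 0.0465). The differences of the 2 probes differed by -0.15, with p = 0.629 in an exact two-sided permutation test over the 8 samples.

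Stat5b, which encodes the main growth hormone-activated STAT of the liver, could not be measured. Its probe read 4.59, 4.50, 4.45 and 4.80 in Cic-L-/- liver and 4.69, 4.69, 4.58 and 4.59 in wildtype liver, and was above background on 0 of 4 arrays in each group. The deposited intensities were 131.2 to 150.9 in Cic-L-/- liver and 118.4 to 135.7 in wildtype liver, at the level of the control rows, whose medians were 138.5 to 141.9 on Cic-L-/- arrays and 114.2 to 136.3 on wildtype arrays. These signals give only an upper bound on the transcript and no fold. They bear on transcript abundance and not on the phosphorylated protein, which was not measured.

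Cish, a STAT5 target whose product inhibits signalling from cytokine receptors, showed the largest difference of the 9 tested genes. Its log2 signal was 8.38, 8.51, 8.41 and 9.34 in Cic-L-/- replicates 1 to 4, against 11.13, 11.21, 10.32 and 10.59 in wildtype replicates 1 to 4. Cic-L-/- replicate 4 was the highest of its group and still lay 0.97 below the lowest wildtype sample. The mean was 8.66 ± 0.46 in Cic-L-/- liver, against 10.81 ± 0.43 in wildtype liver (SD, n = 4 each), a 4.44-fold fall (log2 difference -2.15 ± 0.26 SE, adjusted p = 5.34e-04, limma). By the size of its unadjusted p, Cish ranked 49 among the 8255 features.

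The start of Cish carries 2 copies of the palindrome TTCNNNGAA, the letters that STAT5 dimers are known to bind. It was searched on both strands (the motif is its own reverse complement) in the RefSeq promoter windows of assembly GRCm38.p6, which run from 250 bases before to 50 bases after each transcript start. There were 14 windows for 9 of the 10 genes, and 3 of them held the motif: 1 of Cish and 2 of the 3 of Igfals. Of all 32851 windows, 8.3% held it. Whether 3 of 14 exceeds that share was not tested, and 2 of the 3 windows belong to 1 gene. The stretches below come from all 3 windows that held the motif, whatever the direction of the gene. Each is 80 bases of the plus strand, 5′ to 3′, with the motif in capitals. The Cish stretch is chr9:107296599-107296678, and its matches lie at positions 1 to 9 and 12 to 20, counted from the first transcribed base. The Igfals stretches are chr17:24877594-24877673 and chr17:24878122-24878201, and they belong to different transcript starts, with matches at positions -236 to -228 and -58 to -50 relative to their own start.
Cish: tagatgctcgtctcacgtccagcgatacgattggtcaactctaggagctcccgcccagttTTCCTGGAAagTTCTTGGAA
Igfals, upstream start: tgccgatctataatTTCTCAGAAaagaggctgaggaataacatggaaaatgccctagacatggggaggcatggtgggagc
Igfals, downstream start: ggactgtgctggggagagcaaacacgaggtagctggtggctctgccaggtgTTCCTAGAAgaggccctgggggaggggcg

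The windows of Igf1, Ghr, Stat5b, Igfbp1, Igfbp2, Igfbp3 and Igfbp4 did not hold these letters. Socs2 had 0 windows and was not searched. The octamers TGAATGAA and TGAATGGA, which capicua is known to bind, were in 0 of the 14 windows on either strand, against 1.3% and 1.21% of all windows. At shares this low, 0 matches in 14 windows is the usual outcome and sets these genes apart from no others. These are matches of letters in short windows, and no binding was measured here.

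Socs2, another feedback inhibitor that STAT5 switches on, did not pass the test. It had log2 signals of 11.26, 11.05, 10.26 and 10.62 in Cic-L-/- replicates 1 to 4 and 11.42, 11.63, 9.89 and 11.12 in wildtype replicates 1 to 4. The lowest value of all 8 was that of wildtype replicate 3, and the Cic-L-/- values lay inside the wildtype range. The means were 10.80 ± 0.45 in Cic-L-/- liver, against 11.01 ± 0.78 in wildtype liver (SD, n = 4 each), a difference of -0.21 with a 95% interval of -0.97 to 0.55 (adjusted p = 0.765, limma). The interval reaches a fall of about the size seen for Igf1. Single samples moved the Socs2 difference: it was -0.59 without wildtype replicate 3 (adjusted p = 0.2), -0.01 without wildtype replicate 2, -0.08 without wildtype replicate 1, -0.03 without Cic-L-/- replicate 3 and -0.37 without Cic-L-/- replicate 1, and -0.09 with median centring. Set directly against each other, the Cish and Socs2 differences were 1.94 apart on the log2 scale (-1.94, Cish minus Socs2). An exact two-sided permutation test gave p = 0.0286, the smallest that the 70 arrangements of 4 against 4 samples allow, and 0.0715 after Benjamini-Hochberg adjustment over the 5 pairs compared. The pairs were chosen after their values were seen, which the adjustment does not cover.

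Igf1 fell in all 4 Cic-L-/- samples relative to every wildtype sample. Its log2 signal was 10.56, 10.59, 11.16 and 10.92 in Cic-L-/- replicates 1 to 4, against 11.78, 11.75, 11.73 and 11.93 in wildtype replicates 1 to 4. The wildtype samples lay within a narrow range, and Cic-L-/- replicates 1 and 2 were lower than replicates 3 and 4. The mean was 10.81 ± 0.28 in Cic-L-/- liver, against 11.80 ± 0.09 in wildtype liver (SD, n = 4 each), a 1.99-fold fall (log2 difference -0.99 ± 0.17 SE, adjusted p = 0.0051, limma). In the deposited intensities, before any normalisation, the means were 2040 in Cic-L-/- liver, against 3500 in wildtype liver.

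Igfals, the acid-labile subunit of the circulating IGF complex, is made almost entirely by hepatocytes. Its log2 signal was 9.19, 9.39, 8.97 and 9.85 in Cic-L-/- replicates 1 to 4, against 10.45, 10.66, 10.61 and 10.60 in wildtype replicates 1 to 4. No Cic-L-/- sample came within 0.598 of a wildtype sample. The mean was 9.35 ± 0.38 in Cic-L-/- liver, against 10.58 ± 0.09 in wildtype liver (SD, n = 4 each), a 2.35-fold fall (log2 difference -1.23 ± 0.19 SE, adjusted p = 0.003, limma). The replicate order was not that of Igf1: Igfals was lowest in Cic-L-/- replicate 3, where Igf1 was highest. The Igf1 and Igfals differences were 0.24 apart, with p = 0.514 in the exact permutation test.

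The third partner of that complex, Igfbp3, is the main carrier of IGF1 in the blood and in liver is known to come mostly from non-parenchymal cells. Its probe was close to background, above it on 4 Cic-L-/- arrays and 3 wildtype arrays. The log2 signals were 5.41, 5.79, 6.01 and 5.93 in Cic-L-/- liver and 6.06, 6.0, 6.40 and 5.09 in wildtype liver. The groups overlapped, with wildtype replicate 4 the lowest and wildtype replicate 3 the highest of the 8. The difference was -0.10, with a 95% interval of -0.66 to 0.46 (adjusted p = 0.865, limma), and it changed sign to 0.04 with median centring. A change of Igfbp3 within that interval was not detectable with this probe.

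**Figure D2:**
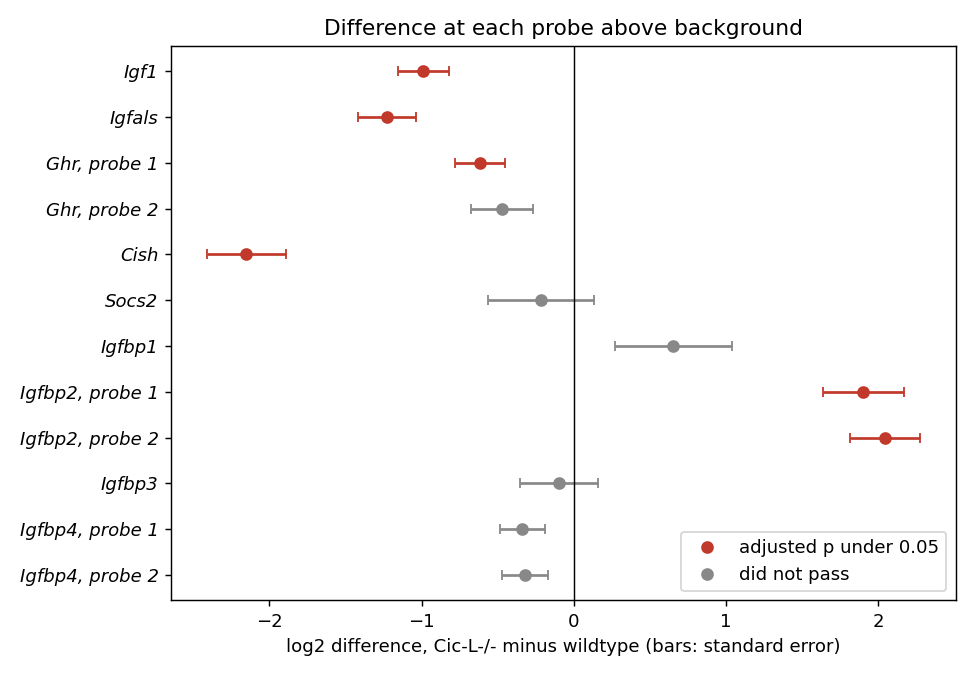
Points are the log2 difference, Cic-L-/- minus wildtype, of each of the 12 probes above background, and bars are its standard error in the fit over 10300 kept probes. Cish lies furthest below 0 (-2.15) and both Igfbp2 probes furthest above it (1.90 and 2.05), both Igfbp4 probes lie close to -0.3, and red marks an adjusted p under 0.05.

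Igfbp2 moved opposite to the other called genes. It encodes a binding protein that is high in the fetal liver and is known to rise when growth hormone action is low. Its brighter probe read 12.65, 12.77, 12.58 and 12.45 in Cic-L-/- replicates 1 to 4, against 10.73, 10.46, 11.14 and 9.93 in wildtype replicates 1 to 4. The lowest Cic-L-/- sample lay 1.31 above the highest wildtype sample, and the spread was wider in wildtype liver. The mean was 12.61 ± 0.13 in Cic-L-/- liver, against 10.57 ± 0.51 in wildtype liver (SD, n = 4 each), a 4.13-fold rise (log2 difference 2.05 ± 0.23 SE, adjusted p = 2.84e-04, limma). By unadjusted p it ranked 40 among the 8255 features, ahead of Cish.

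The second Igfbp2 probe read 11.73, 11.64, 11.20 and 11.05 in Cic-L-/- liver, against 9.65, 9.66, 10 and 8.71 in wildtype liver. Again no sample of the groups overlapped, and wildtype replicate 4 was the lowest at both probes. Its difference was 1.90 ± 0.27 (SE, adjusted p = 0.00187 over the kept probes), and the 2 probes' differences were 0.14 apart (exact permutation p = 0.4). Both probes are annotated to the same transcript and are not independent samples of the liver. In the deposited intensities the means of the brighter probe were 6960 in Cic-L-/- liver, against 1614 in wildtype liver.

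Igfbp1, a binding protein that insulin represses and that rises on fasting, varied widely within both groups. Its log2 signal was 10.57, 9.61, 9.78 and 9.37 in Cic-L-/- replicates 1 to 4 and 10.03, 9.24, 9.48 and 7.97 in wildtype replicates 1 to 4. The groups overlapped, and wildtype replicate 4 alone lay over 1 log2 unit below the rest. The means were 9.83 ± 0.52 in Cic-L-/- liver, against 9.18 ± 0.87 in wildtype liver (SD, n = 4 each), a difference of 0.65 with a 95% interval of -0.19 to 1.50 (adjusted p = 0.352, limma). The difference was 0.41 without Cic-L-/- replicate 1 (adjusted p = 0.63) and 0.25 without wildtype replicate 4 (adjusted p = 0.677). The Igfbp2 difference exceeded that of Igfbp1 by 1.39 (exact permutation p = 0.0286, adjusted p = 0.0715 over the 5 pairs). This pair, too, was chosen after its values were seen.

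Igfbp4, whose product binds IGF1 in tissues until the protease PAPP-A cuts it, had the highest signals of the axis, although probes cannot be ranked against each other by level. Its brighter probe read 13.07, 13.29, 13.41 and 13.49 in Cic-L-/- replicates 1 to 4, against 13.71, 13.64, 13.58 and 13.68 in wildtype replicates 1 to 4. The groups did not overlap, with a gap of 0.088 between them, yet the difference of -0.34 ± 0.14 (SE) did not pass (95% interval -0.65 to -0.03, adjusted p = 0.187, limma). The second probe, annotated to the same transcript, read 12.54, 12.26, 12.36 and 12.71 in Cic-L-/- liver, against 12.80, 12.73, 12.90 and 12.72 in wildtype liver. Cic-L-/- replicate 4 and wildtype replicate 4 all but touched, and the difference was -0.32 ± 0.15 (SE, adjusted p = 0.248 over the kept probes).

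**Figure D3:**
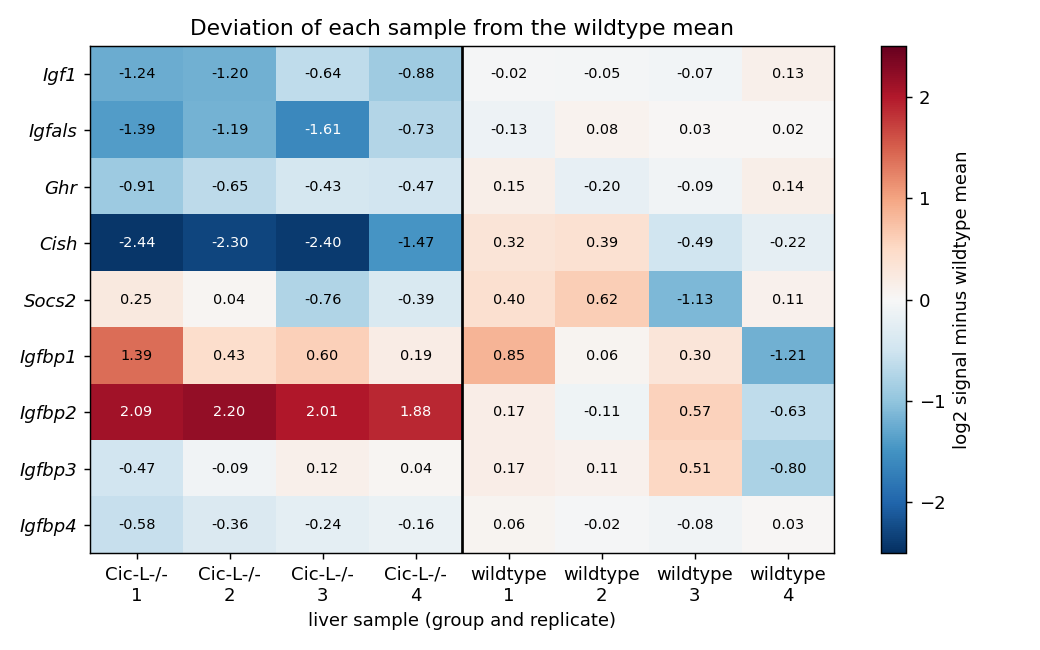
Each cell is the log2 signal of 1 gene (rows) in 1 liver sample (columns, Cic-L-/- left and wildtype right) minus the mean of the 4 wildtype samples. The 4 Cic-L-/- columns are negative for Igf1, Igfals, Ghr, Cish and Igfbp4 and positive for Igfbp1 and Igfbp2. Those of Socs2 and Igfbp3 hold both signs, and Igfbp1 and Igfbp4 did not pass the test.

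Across the Cic-L-/- samples the genes did not share 1 order. Relative to the wildtype mean, Igf1 was at -1.24, -1.20, -0.64 and -0.88, and Ghr at -0.91, -0.65, -0.43 and -0.47, in Cic-L-/- replicates 1 to 4. Both were lower in replicates 1 and 2, the samples further from wildtype on the first component. Cish was at -2.44, -2.30 and -2.40 in Cic-L-/- replicates 1 to 3 and at -1.47 in replicate 4, and Igfals was also least reduced in replicate 4 (-0.73). Igfbp2 was nearly even over the Cic-L-/- samples, between 1.88 and 2.20. Among the wildtype samples, replicate 4 was the lowest for Igfbp1, Igfbp2 and Igfbp3.

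Beyond the axis, 4 lists of related genes were described by the same fit, with counts and medians only. They were compiled with earlier results of these data known, so their counts are not independent evidence. Of 12 tested genes of growth hormone receptor signalling, 1 rose, 0 fell and 11 did not pass (median -0.10). That is 8.33% called, close to the 7.39% of all features. The gene that rose was Ptpn6, a phosphatase of blood cells that dephosphorylates JAK2, at 8.54 ± 0.22 in Cic-L-/- liver, against 7.75 ± 0.21 in wildtype liver (SD, n = 4 each, 1.73-fold, adjusted p = 0.0156). Its other probe showed a difference of 0.02 (adjusted p = 0.964 over the kept probes), and with the 2 probes averaged the call ended (adjusted p = 0.158). It also ended without Cic-L-/- replicate 1 or 2 (highest adjusted p = 0.0522).

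Some markers of leukocytes and macrophages were also higher in Cic-L-/- liver. Of 6 tested leukocyte markers 3 rose (S100a8, S100a9 and Cd79a) and 3 did not pass (Ngp, Camp and Ms4a1), and the list's summed signal was 3030 to 4520 in Cic-L-/- liver, against 1800 to 2290 in wildtype liver. Of 8 tested Kupffer cell markers 3 rose (Adgre1, C1qc and Marco) and 5 did not pass (C1qa, C1qb, Vsig4, Timd4 and Clec4f), with summed signals of 4560 to 9040 in Cic-L-/- liver, against 3460 to 3730 in wildtype liver. Marco was above background on 4 Cic-L-/- arrays and 1 wildtype array, so it passed the detection filter only through the group where it was higher. All 3 were higher in Cic-L-/- replicates 1 and 2 than in replicates 3 and 4 (Marco 8.84 and 9.19, against 5.88 and 7.04). Cd5l was above background on 0 arrays and the pan-leukocyte marker Ptprc on at most 3. The called shares of 50% and, with Marco counted, 37.5% stand beside 7.39% of all features. Of 10 endothelial, 8 stellate and 4 erythroid markers tested, 0 were called, beside the same 7.39%. Of the bile duct markers, 0 could be tested. The part of these cells in the Ptpn6 or Igfbp3 values was not tested.

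Elsewhere in that list, the adaptor Grb2 differed by -0.54 (adjusted p = 0.138, and -0.16 without background correction) and Stat3 by 0.48 (adjusted p = 0.156). Jak2, Stat5a and Socs3, picked after their values were seen because they stand next to GHR, differed by 0.21 (adjusted p = 0.631), -0.16 (adjusted p = 0.7) and 0.25 (adjusted p = 0.403). The sign of Stat5a turned with median centring. The second Jak2 probe had the opposite sign (-0.07, adjusted p = 0.916 over the kept probes). The other Stat3 probes differed by 0.18 and 0.59 (adjusted p = 0.734 and 0.45 over the kept probes). The suppressor Socs1 was above background on 0 arrays.

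Among 12 tested IGF ligands, receptors, other binding proteins and proteases, 2 rose, 0 fell and 10 did not pass (median 0.03), or 16.7% called beside 7.39% of all features. The fetal growth factor Igf2 read 14.43, 14.51, 14.58 and 13.93 in Cic-L-/- replicates 1 to 4, against 12.72, 12.63, 12.51 and 12.39 in wildtype replicates 1 to 4. All Cic-L-/- samples were above all wildtype samples, and the rise was 3.48-fold (log2 difference 1.80 ± 0.17 SE, adjusted p = 9.03e-05, limma). Igf2bp3, an RNA-binding protein that binds Igf2 transcripts, rose 1.79-fold (adjusted p = 0.00839). The stanniocalcin Stc2, an inhibitor of PAPP-A, exceeded background on 1 array of Cic-L-/- liver and 3 arrays of wildtype liver, and did not pass (adjusted p = 0.0652). Its difference was -0.63, and -0.19 without background correction (adjusted p = 0.179). The insulin-degrading enzyme Ide differed by -0.24 (adjusted p = 0.385). The receptor Igf1r was above background on 0 arrays and Insr on at most 1, so neither was tested.

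Of 22 tested liver genes known to depend on STAT5 or growth hormone, 6 fell, 3 rose and 13 did not pass (median -0.22). With Ntrk2 and Fmo2 counted, 40.9% were called, beside 7.39% of all features. Both exceeded background on 4 wildtype arrays and 2 Cic-L-/- arrays. They thus passed the detection filter only through the group where they were higher. With detection on all 8 arrays neither was tested, and the list had 7 called genes. The falls included the neurotrophin receptor Ntrk2 (log2 difference -3.76 ± 0.20 SE, adjusted p = 7.4e-07). Its probe was above background on only 2 Cic-L-/- arrays, so the size of that fall depends on the background correction: it was -2.85 with an offset of 50 and -1.96 without correction, with the call kept in both. Selenbp2 fell 3.25-fold (adjusted p = 5.34e-04), the peroxisomal coenzyme A hydrolase Nudt7 2.45-fold (adjusted p = 0.00169) and Keg1 2.10-fold (adjusted p = 0.00368). The monooxygenase Fmo2, above background on 2 Cic-L-/- arrays, fell by 0.90 on the log2 scale (adjusted p = 0.017), and without background correction by 0.29 (adjusted p = 0.0547). Leaving out any 1 of Cic-L-/- replicates 1 and 2 and wildtype replicates 2 and 4 also removed the Fmo2 call, with adjusted p-values of up to 0.0577. The acyl-CoA thioesterase Acot3 rose 7.99-fold (adjusted p = 8.72e-05). Neither the p53 target Cdkn1a (-0.63, adjusted p = 0.089) nor the hydroxylase Cyp7b1 (-0.57, adjusted p = 0.147) passed. The list held 48 genes, of which 38 were on the array, and the shares describe only the 22 tested. The others of the 38 were below the detection filter. Among them, Cyp4a12a and Slco1a1 were above background on 0 arrays and Hsd3b5 on at most 3.

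The remaining 3 calls of this list are named after their values were seen: complement C8b fell 1.63-fold (adjusted p = 0.0179), and the nuclear receptor Pparg (adjusted p = 0.0463) and the transcription factor Cux2 rose. Cux2, known to be higher in adult females, read 9.14, 8.90, 9.34 and 9.22 in Cic-L-/- liver, against 6.15, 7.04, 8.82 and 8.04 in wildtype liver. The Cic-L-/- samples were even, and the wildtype samples spread over more than 2 log2 units (adjusted p = 0.0463). Transcripts of the Y-linked Eif2s3y and Kdm5d were detected in every sample. With 1 sample left out, Cux2 and Pparg each kept the call in 1 of 8 fits (highest adjusted p 0.112 for Cux2 and 0.123 for Pparg) and C8b in 5 of 8 (highest 0.0584). Without the detection filter Cux2 and Pparg were not called, Pparg was also lost with every kept probe and with the replicate block (adjusted p = 0.0911), and C8b with median centring (adjusted p = 0.071) and the block (adjusted p = 0.0535). The list's count fell to 5 without Cic-L-/- replicate 1 and to 5 without Cic-L-/- replicate 2. The list mixes genes that growth hormone raises with genes that it lowers, so its median has no fixed sign.

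Of 15 tested genes in the list for insulin, FOXO factors and fasting, 1 rose, 0 fell and 14 did not pass (median -0.29). That is 6.67% called, beside 7.39% of all features. Whether insulin, FOXO factors or fasting moved any of them was not tested. Asparagine synthetase Asns read 8.76, 8.48, 7.60 and 8.75 in Cic-L-/- liver, against 6.79, 6.47, 7.25 and 7.26 in wildtype liver. No samples overlapped, and the rise was 2.74-fold (log2 difference 1.46, adjusted p = 0.00851), with a log2 difference of 0.93 without background correction. Pdk4, a kinase that spares glucose on fasting, differed by 0.54 (adjusted p = 0.069) and Atf4 by -0.40 (adjusted p = 0.127).

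**Figure D4:**
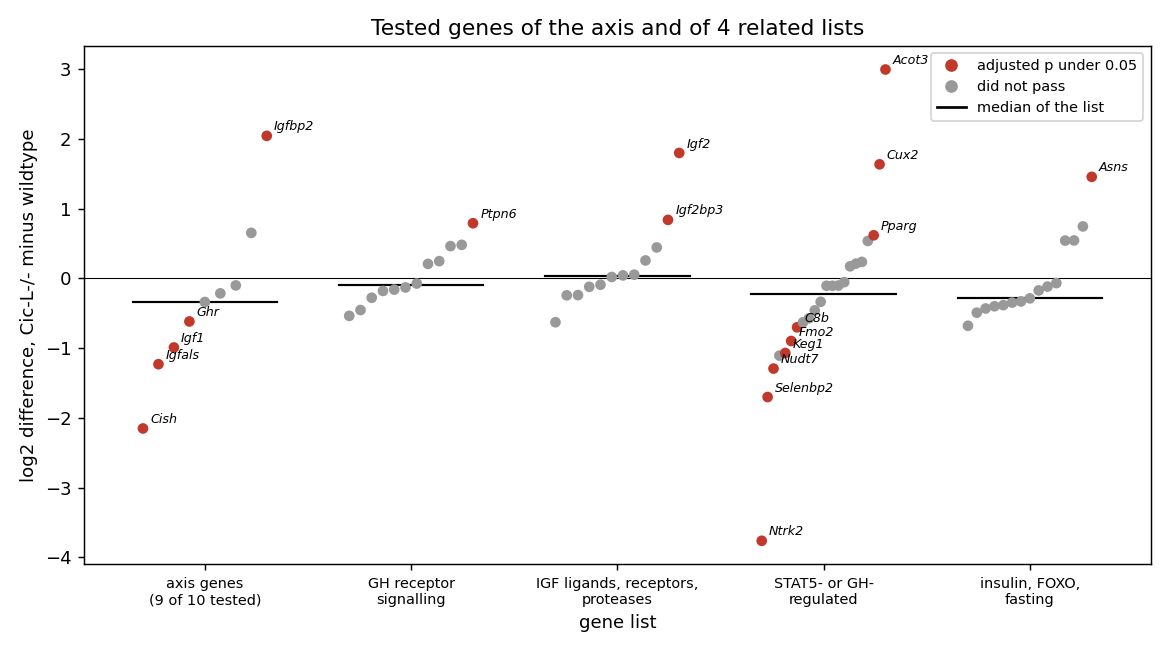
Each point is the log2 difference, Cic-L-/- minus wildtype, of 1 tested gene, grouped by list and sorted within it, with red for an adjusted p under 0.05 and a line at the list's median. Called genes number 5 of 9 for the axis, 1 of 12 for receptor signalling, 2 of 12 for the IGF list, 9 of 22 for the STAT5 or growth hormone list and 1 of 15 for the insulin and fasting list.

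Likeness of profile was measured over the 8 arrays as the root mean square difference between 2 genes' log2 signals, each centred on its own mean. Among named genes outside the axis, those closest to Igf1 were Xkr9 (0.102), the mitochondrial subunit Ndufa4 (0.128), the co-chaperone Fkbp4 (0.129), the liver factor Foxa1 (0.152) and the mRNA-decay factor Zfp36 (0.152). Their differences lay between -1.21 and -0.87 on the log2 scale. Closest to Igfbp2 were the thyroxine-binding globulin Serpina7 (0.293), the lipoprotein receptor Vldlr (0.304), Igdcc4 (0.308), Igf2 (0.334) and the cell cycle inhibitor Cdkn1c (0.351). Igf2 and Cdkn1c are imprinted genes of fetal growth. The nearest profiles of Igfbp2 were further away than those of Igf1, and these distances include the group difference itself.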

How the data were processed

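The members and gene lists were chosen with earlier results of these data known. Per the labels' protocols, liver RNA was isolated on spin columns and labelled with Cy3. The authors deposited linear intensity values, not normalised between arrays, and log2 values with no method in words. Those log2 values equal quantile-normalised log2 intensity within 5e-05, and the series matrix holds them with a difference of 0.

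From the intensity values, 1124 rows without a probe ID were taken as negative controls, a reading of the values. Background was corrected with normexp (limma 3.58.1, R 4.3.3, robust, offset 16), followed by log2 and quantile normalisation over 8 arrays. A detection p is the share of control rows at least as bright. Probes under 0.05 on at least 4 arrays were kept (10300 of 25697). Probe names came from the platform annotation (23978 probes with 1 gene, 1719 unnamed here). The brightest kept probe stood for a gene, giving 8255 features. Fold changes of dim probes are understated by the offset.

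Cic-L-/- was compared with wildtype in a two-sided limma fit without covariates (lmFit, eBayes), Benjamini-Hochberg adjusted over all features. The fit was tested on simulated data. The 5 pairs of differences, chosen after values were seen, were tested by exact permutation. Same-numbered samples showed correlations of -0.032 to 0.05 in their deviations from the group means, so the numbers were not taken as pairs. No 2 arrays were copies (highest Pearson's r 0.9907).

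All 10 members were named, plus up to 6 called and 2 next genes of each of 4 lists, and the 5 profiles most like Igf1 and Igfbp2. Promoter windows are RefSeq's (GRCm38.p6). The series gives no build, so other coordinates were not used here.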

Additional observations from a re-analysis of the deposited data

Results flagged for a closer look

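Among the 12 kept probes of the axis, in 2 groups each, 1 value stood apart from its group: Cish in Cic-L-/- replicate 4. At a log2 signal of 9.34, it was separated from the next sample (8.51) by a gap that made up 0.861 of the range of the 4 Cic-L-/- samples, above Dixon's 95% critical value for 4 samples, which chance alone passes in about 1 of 20 groups. The same sample had the least reduced Igfals (9.85, against 8.97 to 9.39 in the other Cic-L-/- samples). Without it the Cish difference was -2.38.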

How the results depend on the processing

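The 9 tested genes were refitted under 9 other settings (no background correction, offset 50, median centring, no detection filter, detection on all 8 arrays, every kept probe, the mean of the kept probes, a variance trend and a replicate block) and without each of the 8 samples. Igfbp3 was not tested with detection on all 8 arrays. Of 152 refits of single genes, 141 kept direction and side of the threshold. The others were 8 refits of Ghr, which lost the call, and 3 of Igfbp3, which changed sign. The refits reuse the same samples and include genes not called in the main fit, so the 141 are not independent checks. Cish (-2.38 to -1.87), Igfals (-1.40 to -1.09), Igf1 (-1.11 to -0.89) and Igfbp2 (1.83 to 2.24) kept their calls in all 17. Ghr lost its call with median centring (-0.50, adjusted p = 0.0706) and with the replicate block (-0.62, adjusted p = 0.078), and ranged from -0.68 to -0.52 with 1 sample left out. Igfbp3 turned to 0.04 with median centring and ranged from -0.37 to 0.07 with 1 sample left out, and Stat5a turned to 0.09 with median centring. Calls over all features with 1 sample left out were 194 to 376 higher (371 with all samples) and 132 to 252 lower (239). Median centring gave 706 higher and 131 lower. Counts over the lists moved too. Receptor signalling had 2 called genes with every kept probe (Egfr joined) and 0 to 1 with 1 sample left out. With the mean of the kept probes, Egfr was called in place of Ptpn6. In the main fit the Egfr difference was -0.45 (adjusted p = 0.207, limma). The STAT5 or growth hormone list had 5 to 9 with 1 sample left out, and the insulin list 2 with median centring (Pdk4 joined) and 2 with the replicate block (Ddit3 joined). The causes were not tested. Igfbp3 and Stat5b are limited by signal near background.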
